A study of Homo sapiens with 8 samples.

Results

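The coat machinery described here is a set of 34 human genes that encode the COPI and COPII vesicle coats, the ARF and SAR1 GTPases that assemble them, and the regulators and cargo receptors that work with them. The members were listed by name, and a gene was measured by the probe set that the platform annotation gives to that gene alone and that had the highest mean signal. A probe set had to reach a signal of 500 on at least 1 array, and 33 of the 34 members were measured, out of 8961 genes in all. ARF1 was not measured, since its only single-gene probe set had signals of 165 to 369 and the 3 other probe sets that name ARF1 name a microRNA gene as well. On all 8 arrays 30 of the members reached 500, while COPG2 did so on 1 SKG-I siCtrl array, GBF1 on 1 BOKU siCtrl array, and COPZ2 on the BOKU arrays.

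BOKU and SKG-I are cervical cancer cell lines. In both, the mRNA of cells transfected with an siRNA against IGF2R (siIGF2R) was compared with that of cells transfected with a control siRNA (siCtrl), 72 h after lipofection. Each of the 4 combinations gave 1 RNA sample, and the same RNA was put on 2 Affymetrix GeneChip arrays, so the duplicate arrays share their RNA and the 2 lines are the only replicates of the knockdown. The knockdown was transient and the sources used here do not say which of the study's IGF2R siRNAs was put on the arrays. On these arrays alone, an effect of losing IGF2R and another effect of the siRNA used cannot be told apart. The question was which transcripts change when IGF2R, the receptor that carries mannose 6-phosphate tagged enzymes from the trans-Golgi network to endosomes, is lost.

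Proteins made in the endoplasmic reticulum (ER) leave it in COPII vesicles. SAR1, loaded with GTP by PREB at exit sites organised by SEC16A, recruits the inner coat of SEC23 and SEC24, which picks the cargo, and then the outer coat of SEC13 and SEC31. COPI vesicles carry proteins back from the Golgi to the ER and between Golgi cisternae, and their coat, coatomer, is recruited by ARF GTPases. Exchange factors (GEFs) such as GBF1 load ARF with GTP and ARFGAP proteins trigger its hydrolysis. ARF GTPases also recruit the adaptors that sort IGF2R and other cargo at the trans-Golgi network.

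IGF2R itself was checked first. Its signal was 7288 and 6710 on the BOKU siCtrl arrays and 641 and 645 on the siIGF2R arrays, and in SKG-I it was 4120 and 3838 against 257 and 295. The log2 difference, siIGF2R minus siCtrl, was −3.65 with a standard error (SE) of 0.21 and an adjusted p of 0.0221 by limma, so the signals followed the labels. The epithelial keratins KRT8, KRT18 and KRT19 had signals of 1939 to 18710 over the 8 arrays, whereas the mean signals of EPCAM and CDH1 were 36.5 and 1.83 in BOKU against 1438 and 397 in SKG-I, and KRT5 did not exceed 45.9 on any array. The measured leukocyte markers did not exceed 77.9. Of the fibroblast markers, VIM, COL1A1 and COL3A1 had mean signals of 25700, 1370 and 21.4 in BOKU against 509, 4985 and 1751 in SKG-I, and COL1A2, DCN, LUM and PDGFRB did not exceed 151. Over all probe sets kept, the SD of the log2 difference between duplicate arrays was 0.269 to 0.349, and over the members it was 0.116 to 0.219.

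ARCN1 and ARF3 were lower and SAR1B and CNIH4 higher with siIGF2R than with siCtrl. These 4 of 33 members passed the test, limma over both lines with an adjusted p under 0.05, and no other member did. Among all 8961 genes 2.63% were called higher and 2.37% lower, against 2 members each way. The same 4 members were those that moved by 2-fold or more, and the same way, in both lines, where the shares over all genes were 3.18% higher and 2.34% lower. At an unadjusted p under 0.05 there were 7 members higher and 5 lower, beside 14.4% and 14% of all genes. All 4 called genes are in the study's heat map of Golgi transport genes, which was drawn from these same arrays, so their calls are not independent evidence of their direction.

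Each called gene sits in a different layer of the machinery. ARCN1 encodes the delta subunit of coatomer, ARF3 a Golgi ARF GTPase, SAR1B one of the pair of SAR1 GTPases, and CNIH4 a cornichon protein that helps membrane receptors leave the ER. The median difference of the 33 members was 0.11 in BOKU and −0.15 in SKG-I on the log2 scale, beside 0.03 and −0.03 over all genes, and the BOKU median was −0.01 without BOKU siIGF2R array 1. The measured RNA came from whole cultures, in which fewer expressing cells and less RNA per cell cannot be told apart.

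The promoters of the 4 called genes, on which the result turns, are shown with that of SEC24A, which lies near SAR1B on chromosome 5. Each line is the 250 bases before the RefSeq start in GRCh38.p14, written along the gene's strand. Capitals mark, on either strand, TGACG (the core of the cyclic AMP response element), TGACGTGG (the core of the unfolded protein response element), ACGTGGC (the Golgi apparatus stress response element), CACGTG (an E-box) and CCAAT (the CCAAT box), which overlap one another in places. ARCN1 is at chr11:118572159-118572408 on the plus strand, ARF3 at chr12:48957488-48957737 on the minus strand, SAR1B at chr5:134632829-134633078 on the minus strand, SEC24A at chr5:134648535-134648784 on the plus strand and CNIH4 at chr1:224356629-224356878 on the plus strand.
ARCN1: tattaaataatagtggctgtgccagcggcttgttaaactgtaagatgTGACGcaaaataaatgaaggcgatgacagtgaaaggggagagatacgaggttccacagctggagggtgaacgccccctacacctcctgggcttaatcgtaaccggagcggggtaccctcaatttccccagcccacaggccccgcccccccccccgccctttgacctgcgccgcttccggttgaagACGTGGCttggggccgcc
ARF3: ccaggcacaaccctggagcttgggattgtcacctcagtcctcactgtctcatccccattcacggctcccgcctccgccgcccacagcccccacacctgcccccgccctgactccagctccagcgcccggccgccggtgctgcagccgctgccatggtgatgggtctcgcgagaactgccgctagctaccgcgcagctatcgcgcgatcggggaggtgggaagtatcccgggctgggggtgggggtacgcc
SAR1B: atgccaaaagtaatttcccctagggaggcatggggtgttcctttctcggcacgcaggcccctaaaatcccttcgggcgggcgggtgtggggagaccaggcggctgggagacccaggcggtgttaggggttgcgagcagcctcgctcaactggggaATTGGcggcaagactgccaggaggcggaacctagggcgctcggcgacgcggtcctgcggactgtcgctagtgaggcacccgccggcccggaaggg
SEC24A: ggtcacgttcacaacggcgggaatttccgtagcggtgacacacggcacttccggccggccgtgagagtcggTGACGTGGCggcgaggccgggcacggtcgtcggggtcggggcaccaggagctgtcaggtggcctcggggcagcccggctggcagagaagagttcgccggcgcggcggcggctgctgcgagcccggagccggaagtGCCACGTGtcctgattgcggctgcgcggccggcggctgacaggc
CNIH4: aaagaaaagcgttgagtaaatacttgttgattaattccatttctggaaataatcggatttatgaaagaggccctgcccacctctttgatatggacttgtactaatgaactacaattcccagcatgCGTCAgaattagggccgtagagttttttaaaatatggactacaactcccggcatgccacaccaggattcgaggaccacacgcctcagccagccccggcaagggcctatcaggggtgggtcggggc

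The ARCN1 window holds TGACG and, next to its start, ACGTGGC. That of SEC24A holds TGACGTGG and ACGTGGC in overlap and, further on, ACGTGGC on the other strand merged with CACGTG. SAR1B has a single CCAAT box on the opposite strand, CNIH4 a single TGACG on the opposite strand, and ARF3 none of these letters. The promoters of SAR1B and SEC24A face away from each other, and their windows' starts of transcription are 16.0 kb apart.

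Of the 34 members, 29 have a promoter in the table used. ACGTGGC was found in 8 of them (27.6%), which are ARCN1, COPB2, COPG1, SEC31A, SEC24A, SEC24C, SAR1A and ARF1, against 2.78% of all 35116 promoters of that length. TGACGTGG was found in 4 (13.8% against 0.612%), namely COPB1, COPB2, SEC24A and ARF1, and TGACG in 14 (48.3% against 21.2%). The member windows were rich in G and C, with a median of 67.2% against 58.0% over all promoters, and GGGCGG, the GC box, was found in 72.4% of them against 42.6%. CCAAT was found in 27.6% against 32.0%, CACGTG in 6.9% against 6.34%, and TGACGTCA (the full cyclic AMP response element), the ER stress response element and TATAAA (the TATA box) in none, against 1.65%, 0.074% and 10.7%. Log2 differences over both lines were below 0 for 6 of the 7 measured members with ACGTGGC, 1 of 3 with TGACGTGG, 7 of 13 with TGACG, 5 of 8 with CCAAT and 13 of 20 with GGGCGG, beside 18 of all 33.

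The signals of the 4 called genes were apart in both lines. ARCN1 read 2684 and 2232 on the siCtrl arrays of BOKU and 625 and 951 on the siIGF2R arrays. In SKG-I it read 5456 and 5443 with siCtrl and 1232 and 1384 with siIGF2R. Every siIGF2R array was below every siCtrl array of its line, by 3.18-fold of the means in BOKU and 4.17-fold in SKG-I. The log2 difference over both lines was −1.86 with an SE of 0.20 and an adjusted p of 0.0221 by limma. ARCN1 has 1 probe set on the array, so no other probe set could be set beside it.

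ARF3 read 5530 and 5495 in BOKU with siCtrl and 2446 and 2292 with siIGF2R, and in SKG-I 6454 and 6812 against 2535 and 2854. The siIGF2R arrays were again below the siCtrl arrays in both lines, by 2.33-fold and 2.46-fold. Its log2 difference was −1.26 (SE 0.16, adjusted p 0.0266 by limma).

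SAR1B read 1062 and 1098 in BOKU with siCtrl and 4639 and 4281 with siIGF2R, and in SKG-I 1528 and 1412 against 3680 and 3741. All siIGF2R arrays were above the siCtrl arrays, by 4.13-fold in BOKU and 2.53-fold in SKG-I. Its log2 difference was 1.69 (SE 0.23, adjusted p 0.0295 by limma).

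CNIH4 read 3460 and 3244 in BOKU with siCtrl and 7078 and 7769 with siIGF2R, and in SKG-I 3652 and 3586 against 8600 and 8267. The rise was of similar size in both lines, 2.21-fold and 2.33-fold, with no overlap of the arrays. Its log2 difference was 1.18 (SE 0.15, adjusted p 0.0266 by limma).

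**Figure D1:**
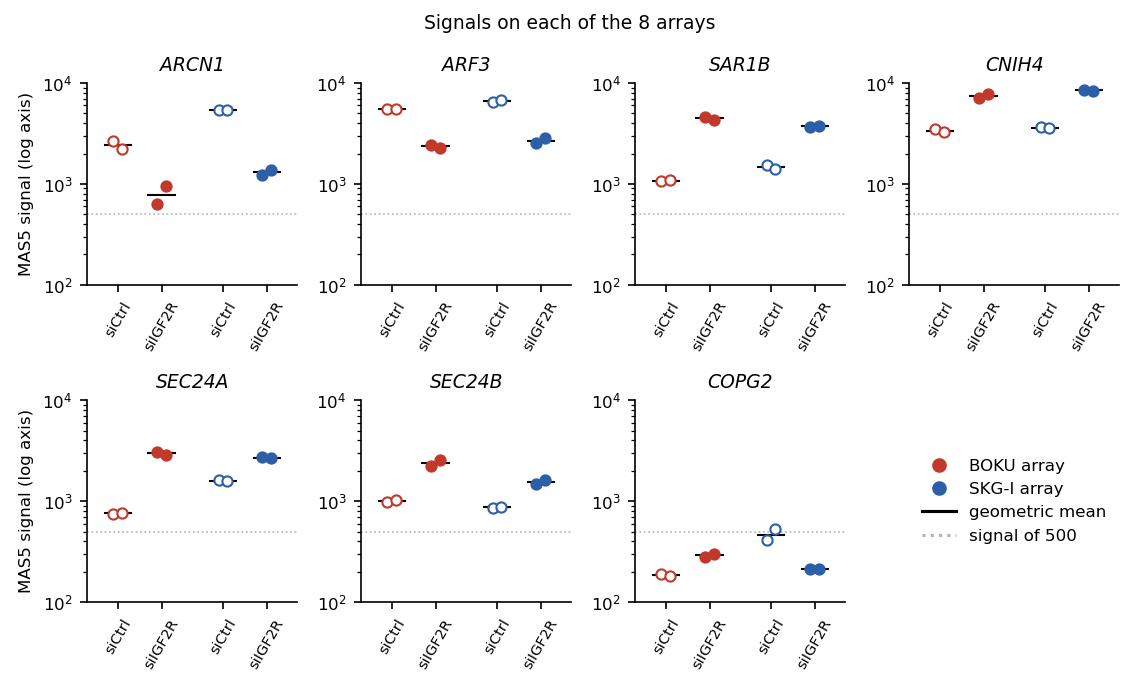
MAS5 signal on each of the 8 arrays (log axis) for the 4 called members, for SEC24A and SEC24B, and for COPG2. Open points are siCtrl and filled points siIGF2R, black bars are geometric means of duplicate arrays, and the dotted line is the signal of 500 used as the filter. ARCN1 and ARF3 were lower and SAR1B and CNIH4 higher with siIGF2R in both lines, while COPG2 went from 190 and 180 to 281 and 300 in BOKU and from 410 and 525 to 210 and 215 in SKG-I.

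The calls rest on the spread that limma shares between genes and on the cell line as a block. Without a trend of the variance with signal the adjusted p was 0.102 for ARCN1, 0.103 for ARF3, 0.104 for SAR1B and 0.107 for CNIH4, and without the block it was 1 for each.

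Within the COPI coat, ARCN1 was the 1 of 9 subunits that passed the test. The other 8 had log2 differences over both lines of −0.52 to 0.18 and adjusted p values of 0.0978 to 0.821 by limma. In SKG-I all 9 differences were below 0 and both siIGF2R arrays lay below both siCtrl arrays for 8 of them and above for 0. COPG2 is among these 8, and it passed the filter only through 1 SKG-I siCtrl array, where it was high. In BOKU 4 lay below and 4 above. A background stands beside these counts: in SKG-I 43.6% of all genes lay below in this sense and 39.6% above, and in BOKU 35.8% and 40.4%. Over all 33 members, 18 lay below and 9 above in SKG-I, and 10 below and 15 above in BOKU. COPG2 is counted in the 18, and GBF1, kept only through 1 BOKU siCtrl array, in the 10. Such a count sets arrays of the same RNA against each other, and it shows only that the gap exceeded the spread between duplicates.

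Coatomer is assembled from an outer pair, alpha (COPA) and beta prime (COPB2), with epsilon (COPE), and an adaptor-like core of beta (COPB1), gamma (COPG1 or COPG2), delta (ARCN1) and zeta (COPZ1 or COPZ2). The log2 differences in BOKU and SKG-I were −0.24 and −0.08 for COPA, −0.20 and −0.43 for COPB2 and −0.32 and −0.68 for COPE. COPA was also the member whose duplicate arrays differed most, with 2711 and 4198 in BOKU siCtrl. In the core they were 0.16 and −0.05 for COPB1, 0.18 and −0.47 for COPG1, −0.53 and −0.51 for COPZ1, and 0.39 and −0.03 for COPZ2. COPZ1 was about as far from 0 in one line as in the other, with an adjusted p of 0.0978 by limma. COPE had an adjusted p of 0.137.

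COPG2, the second gamma subunit, was the 1 member whose arrays lay apart in opposite directions by at least 1.5-fold in each line, beside 1.36% of all genes. Its signal was 190 and 180 in BOKU with siCtrl and 281 and 300 with siIGF2R, and in SKG-I 410 and 525 against 210 and 215. These are differences of 0.65 in BOKU and −1.13 in SKG-I on the log2 scale. COPG2 was kept only through 1 SKG-I siCtrl array, in the group where it was high, and was below 500 on the other 7 arrays, so its pattern is a description. With no fold limit, 5 members lay apart in opposite directions, beside 13.3% of all genes: COPB1, COPG1, COPG2 and SEC13 were above in BOKU and below in SKG-I, and ARFGEF1 the other way round. Each line has 1 RNA sample per siRNA, so the difference between lines was not tested.

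**Figure D2:**
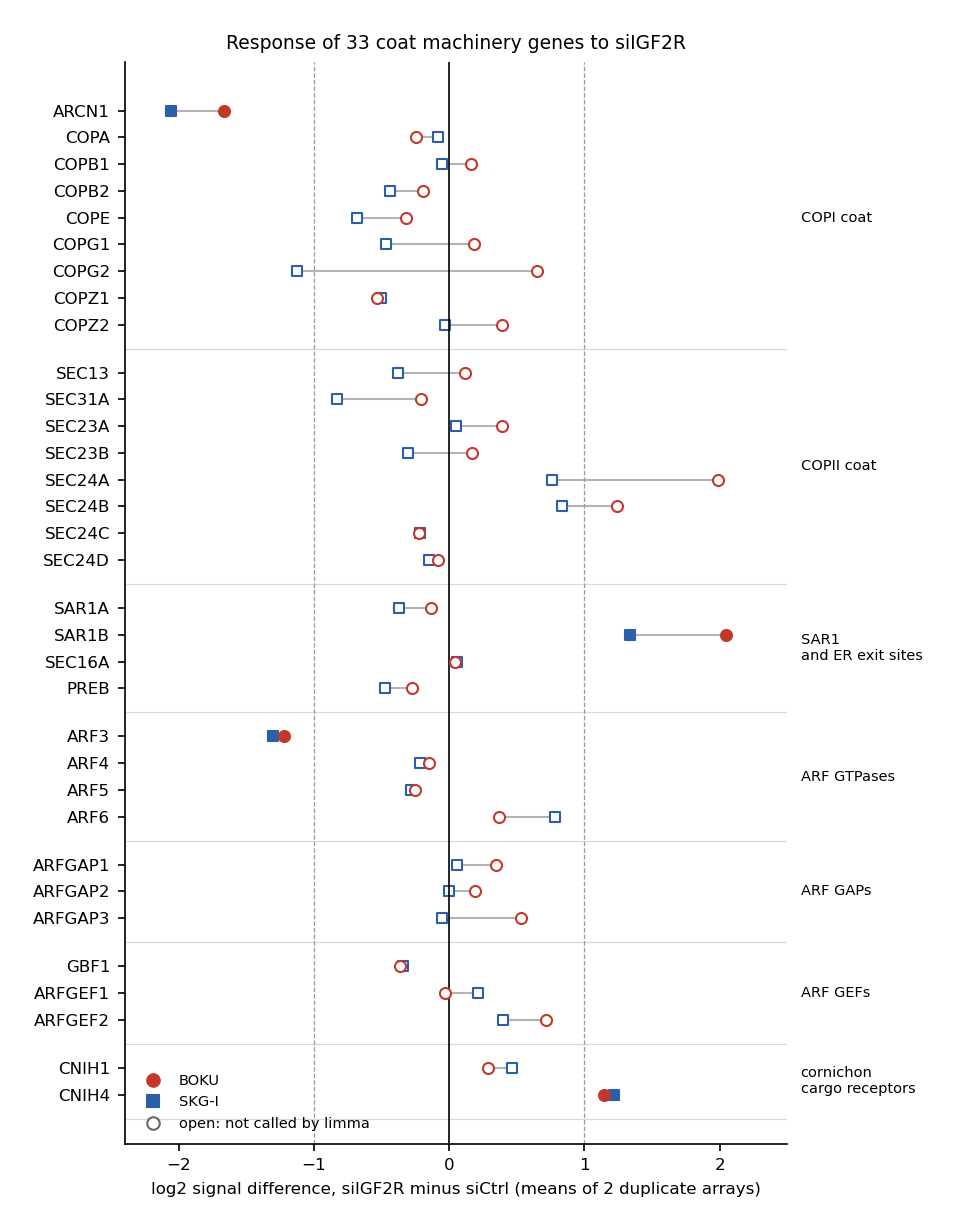
Log2 signal difference, siIGF2R minus siCtrl, of the 33 measured members in BOKU (circles) and SKG-I (squares), each from the means of 2 duplicate arrays, grouped by role. Filled symbols mark the 4 members called by limma over both lines, and dashed lines mark 2-fold. ARCN1 and ARF3 lie beyond 2-fold on the left in both lines and SAR1B and CNIH4 on the right, SEC24A and SEC24B pass it in BOKU and COPG2 in SKG-I, and 24 of the 33 members have the lower value in SKG-I, beside 4968 of all 8961 genes.

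The COPII coat gave no call among its 8 genes, but the 2 largest differences below the threshold were those of a pair of SEC24 paralogs, the subunits that bind cargo. SEC24A read 749 and 761 in BOKU with siCtrl and 3088 and 2893 with siIGF2R, and in SKG-I 1610 and 1579 against 2721 and 2687. SEC24B read 976 and 1028 in BOKU against 2223 and 2528, and 865 and 880 in SKG-I against 1492 and 1627. In both genes all siIGF2R arrays were above the siCtrl arrays of the line, by 3.96-fold and 1.70-fold for SEC24A and 2.37-fold and 1.79-fold for SEC24B. The log2 difference over both lines was 1.37 (SE 0.32) for SEC24A and 1.04 (SE 0.21) for SEC24B, with adjusted p values of 0.0689 and 0.0562 by limma. Both passed the threshold when BOKU siCtrl array 1 was left out, with adjusted p values of 0.0249 and 0.0283, or BOKU siIGF2R array 2, with 0.0327 and 0.0339.

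The other paralogs, SEC24C and SEC24D, were near 0, with −0.22 and −0.21 for SEC24C in BOKU and SKG-I and −0.08 and −0.15 for SEC24D. SEC24A and SEC24B therefore differed from SEC24C by 2.21 and 1.47 in BOKU and by 0.97 and 1.05 in SKG-I, differences between genes that were not tested. SEC23, the partner of SEC24 in the inner coat, gave 0.39 and 0.05 for SEC23A and 0.17 and −0.31 for SEC23B. In the outer coat the values were 0.11 and −0.38 for SEC13, which also serves the nuclear pore, and −0.21 and −0.83 for SEC31A. SEC31A was the COPII gene furthest below 0, with SKG-I signals of 7948 and 7790 against 4441 and 4430 and an adjusted p of 0.160 by limma.

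SAR1A, the paralog of SAR1B that starts the same coat, did not pass the test. It read 6106 and 5660 in BOKU against 5061 and 5660, and 4037 and 3955 in SKG-I against 2856 and 3337, log2 differences of −0.14 and −0.37. The responses of the pair differed by 2.18 in BOKU and 1.71 in SKG-I on the log2 scale, a difference between genes that was not tested. Around them, SEC16A, the scaffold of ER exit sites, was at 0.04 and 0.06, and PREB, the exchange factor of SAR1, at −0.27 and −0.48. Neither passed the test.

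Among the 4 measured ARF GTPases, ARF3 alone was called. ARF4 and ARF5, which act at the ER to Golgi interface and the Golgi, had differences of −0.15 and −0.22 and of −0.25 and −0.29 in BOKU and SKG-I. ARF6, which works at the plasma membrane and endosomes rather than on COPI vesicles, read 4448 and 4291 against 5397 and 5888 in BOKU and 3865 and 4074 against 6901 and 6756 in SKG-I. Its arrays did not overlap in either line, and its difference was 0.58 (SE 0.18, adjusted p 0.111 by limma).

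No ARF regulator among the members passed the test. ARFGAP1, ARFGAP2 and ARFGAP3, which end the GTP-bound state of ARF on COPI vesicles, had differences of 0.35, 0.19 and 0.53 in BOKU and of 0.06, −0.00 and −0.05 in SKG-I. GBF1, the exchange factor of the early Golgi, was at −0.37 and −0.34 at signals of 240 to 524. It was kept only through a BOKU siCtrl array, where it was highest, so these values are a description. The exchange factors of the trans-Golgi network, ARFGEF1 and ARFGEF2, were at −0.03 and 0.21 and at 0.71 and 0.39. ARFGEF2 read 2524 and 2250 against 4043 and 3771 in BOKU and 3982 and 3826 against 5072 and 5187 in SKG-I, with an adjusted p of 0.122 by limma.

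The cornichons were above 0 in both lines. CNIH1 read 11480 and 12100 against 13540 and 15250 in BOKU and 10840 and 10290 against 15390 and 13770 in SKG-I, log2 differences of 0.29 and 0.46 with an adjusted p of 0.134 by limma, and the response of CNIH4 exceeded it by 0.86 and 0.76. Over the whole set, the arrays of 7 members lay above and of 9 below in both lines without overlap, beside 26.4% and 25.2% of all genes.

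A gene's probe sets read different stretches of its transcripts, so they were compared where a member had more than 1. For 11 of the 17 such members, all kept probe sets gave the same sign as one another in BOKU and, likewise, in SKG-I. All 5 kept probe sets of CNIH4 were above 0 and 4 passed the test by limma, with log2 differences of 1.18 to 1.54, while the fifth, at signals of 19.3 to 634, gave 0.92 with an adjusted p of 0.299. The probe set at 1.54 was kept only through the siIGF2R arrays, where it was high, so its value is a description. The others that passed gave 1.18, 1.22 and 1.29. Of the 3 kept for SAR1B, 2 passed, at 1.69 and 1.35, and the other gave 0.94 with an adjusted p of 0.123.

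The agreement was looser for ARF3, whose 3 probe sets gave −1.26, −0.81 and −0.41 with adjusted p values of 0.0266, 0.0953 and 0.203 by limma. The second probe set of SEC24A gave 0.48 beside 1.37. For ARF6 the probe set with the highest signal gave 0.58 and the others −0.06, −0.07 and 0.20, and for SEC23B −0.07 stood beside −0.52 and −0.61. When the probe sets of a gene were averaged, CNIH4 had an adjusted p of 0.0517, SAR1B 0.0621 and ARF3 0.0679 by limma. ARCN1 alone remained called, but it has 1 probe set, so averaging left its value unchanged and could not test it.

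**Figure D3:**
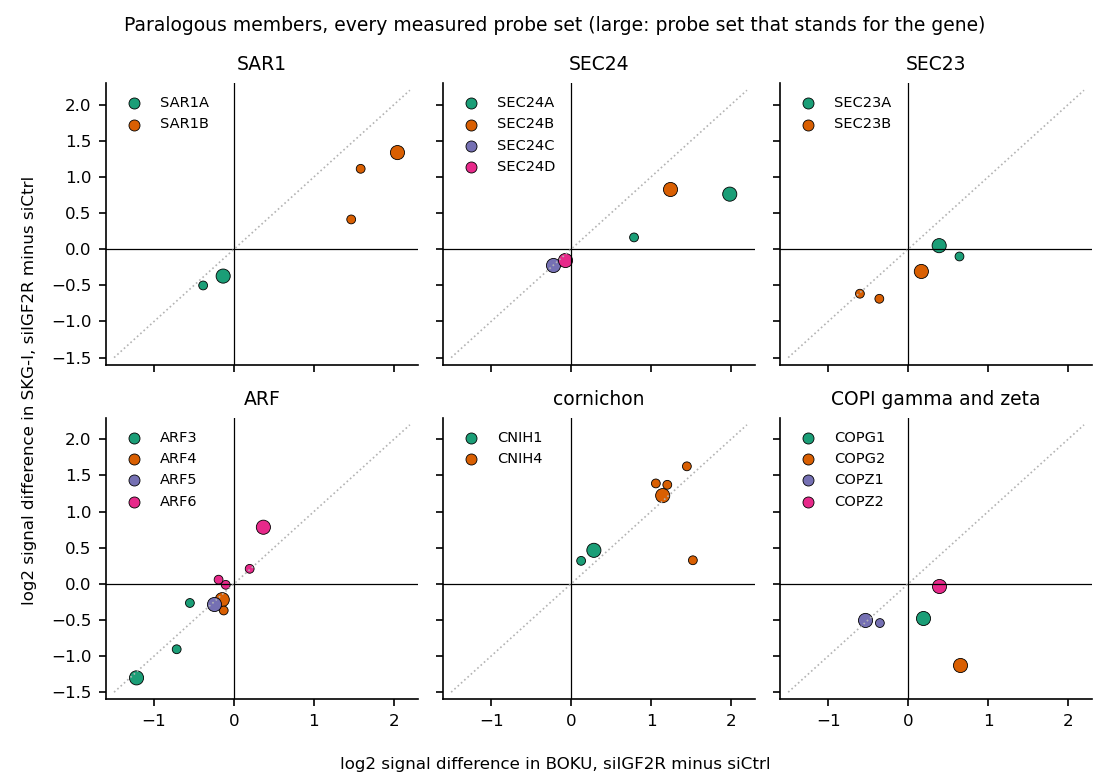
Log2 signal difference, siIGF2R minus siCtrl, in BOKU (x axis) and SKG-I (y axis) for every kept probe set of 6 groups of paralogs. Large points are the probe sets that stand for a gene, small points its other probe sets, and the dotted line marks equal differences. The probe sets of SAR1B, CNIH4 and SEC24B lie in the upper right and those of SAR1A and ARF3 in the lower left, while ARF6 and SEC23B have probe sets on both sides of 0.

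The partners of the coats were taken from a list of 38 genes (p24 proteins, ER retrieval and cargo receptors, tethers, Rab GTPases and SNAREs), of which 34 were measured. RAB1B and SEC22B were lower by limma and 0 were higher, beside the 2.37% and 2.63% of all genes. Both are in that heat map as well, RAB1B under a label shared with RAB1A, and both are in the study's RT-PCR primer list. ARCN1 is in that primer list too, and ARF3, SAR1B and CNIH4 are not. RAB1B, a GTPase that controls traffic between ER and Golgi and recruits GBF1, read 2348 and 2304 against 109 and 146 in BOKU. In SKG-I it read 2074 and 1933 against 252 and 304, with a log2 difference over both lines of −3.53 (SE 0.36, adjusted p 0.0221 by limma). RAB1B was kept only through the siCtrl arrays, where it was high. It was below 500 on every siIGF2R array, so these values are a description. With 500 required on all arrays it was not kept, and ERGIC2 and SEC22B were the partners called. SEC22B, a SNARE of ER to Golgi vesicles, read 5373 and 4597 against 2857 and 2444 and 5073 and 4723 against 2223 and 2365, which is 1.88-fold lower in BOKU and 2.14-fold lower in SKG-I (adjusted p 0.0411 by limma).

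The remaining 32 partners lay between −1.19 (GOSR2) and 0.82, with adjusted p values from 0.0536 up by limma. In BOKU 24 of the 34 were below 0 and in SKG-I 27, beside 4308 and 4650 of all 8961 genes, and the median was −0.17 and −0.30. RAB1B and GOSR2 were kept only through siCtrl arrays, and MIA2 and STX5 only through SKG-I siCtrl arrays, where they were high. RAB1B, GOSR2 and MIA2 were below 0 in both lines and STX5 in SKG-I. Their values are a description, and the counts and medians were not computed without them. The 7 measured p24 (TMED) cargo proteins were below 0 in the mean over both lines, at −0.45 to −0.07, and no TMED gene was called in the reported fit. In BOKU alone TMED3 and TMED4 were above 0, at 0.11 and 0.06. The retrieval receptors KDELR1 and KDELR3 were at −0.17 and 0.20 over both lines. Of a second list of 21 other ARF regulators and ARF-like GTPases, 16 were measured and 0 were called by limma, with 2 higher and 1 lower at an unadjusted p under 0.05, beside the 14.4% and 14% of all genes. Of the 16, 8 lay above 0 and 8 below. AGAP1, among those above, was kept only through the SKG-I siIGF2R arrays, where it was high.

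The lines were also compared over both siRNAs. By the same limma fit, SKG-I was above BOKU for 5 of 33 members and below it for 6, shares that do not exceed the 24.2% and 22% of all genes. The higher ones were SEC23B, ARCN1, SEC16A, COPA and ARFGEF2, with log2 differences, SKG-I minus BOKU, of 1.45 (SE 0.19), 0.96 (SE 0.20), 0.90 (SE 0.17), 0.63 (SE 0.17) and 0.55 (SE 0.18). The lower ones included ARFGEF1, SEC24D, ARF4, SEC24C and SAR1A, with −1.34 (SE 0.18), −1.25 (SE 0.20), −0.76 (SE 0.11), −0.75 (SE 0.20) and −0.68 (SE 0.17). Adjusted p values of these 10 ran from 0.00356 for SEC23B to 0.0477 for ARFGEF2. The other lower one, COPZ2, at −1.88, was kept only through the BOKU arrays, where it was high, so that value is a description. With 500 required on all arrays 4 members were higher and 5 lower, and the shares over all genes were not computed for that filter. Each line is 1 culture source, so these values describe BOKU and SKG-I only.

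With siCtrl alone, which is described without a test, ARCN1, COPG2, SEC23B and SEC24A were at least 2-fold higher in SKG-I and COPZ2, SEC24D and ARFGEF1 at least 2-fold lower, beside 19% and 15.7% of all genes. Of these, COPG2 and COPZ2 had passed the filter only in the line where they were high. SEC23B read 6766 and 7011 in SKG-I and 2401 and 1912 in BOKU. COPZ2 read 251 and 348 against 964 and 910, and ARFGEF1 1953 and 1708 against 5079 and 4972. With siIGF2R the 2.11-fold gap of SEC24A between the lines closed, at 2721 and 2687 in SKG-I against 3088 and 2893 in BOKU, while ARCN1 stayed higher in SKG-I with either siRNA. On the second kept probe set of SEC24A the siCtrl gap was only 1.22-fold. With siIGF2R that probe set read 744 and 688 in SKG-I against 1010 and 809 in BOKU.

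**Figure D4:**
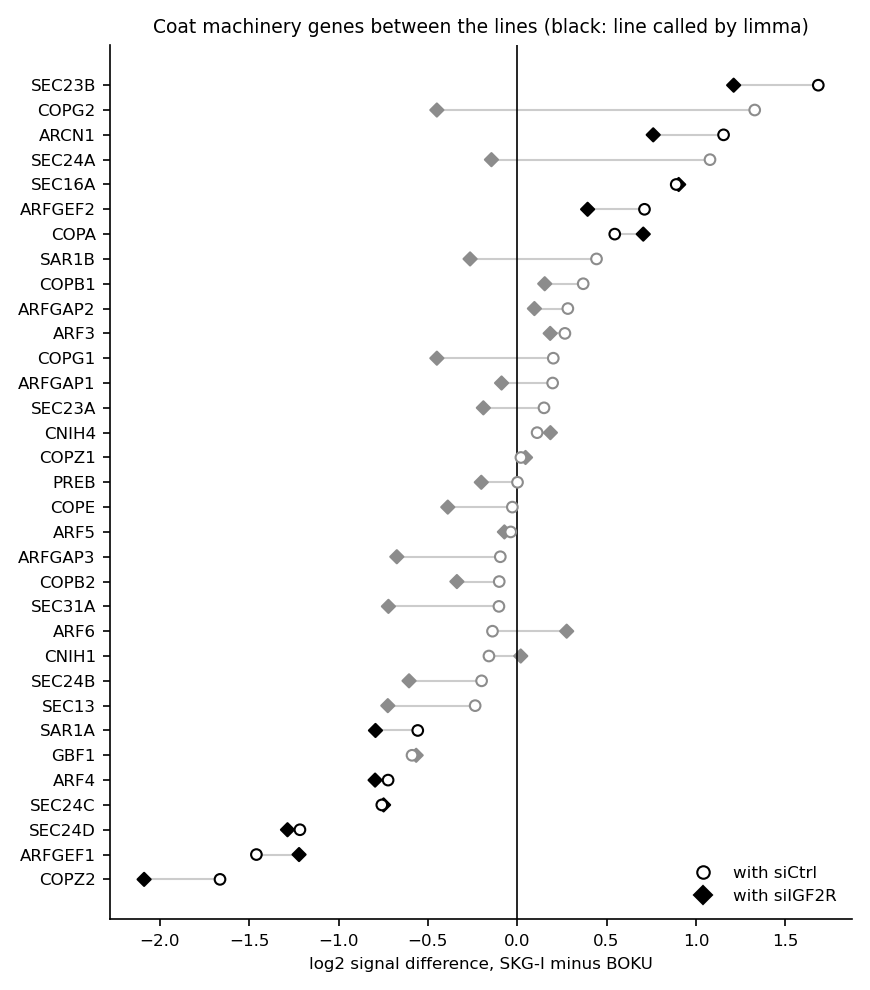
Log2 signal difference, SKG-I minus BOKU, of the 33 measured members with siCtrl (open circles) and with siIGF2R (filled diamonds), each from means of 2 duplicate arrays and sorted by the siCtrl value. Members whose line difference was called by limma are black and the others grey. SEC23B, ARCN1, SEC16A, ARFGEF2 and COPA lie right of 0 and COPZ2, ARFGEF1, SEC24D, SEC24C, ARF4 and SAR1A left of it with both siRNAs, whereas COPG1, COPG2, SEC23A, SEC24A, SAR1B, PREB, ARF6, ARFGAP1 and CNIH1 cross 0.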

How the data were processed

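The mRNA of BOKU and SKG-I cells with siCtrl or siIGF2R was measured 72 h after transfection, in 4 RNA samples on 2 arrays each. The authors deposited 1 MAS5 signal per probe set and array, an intensity on a linear scale. The methods give a scaling of the mean, but the trimmed mean of the deposited signals was 500.06 to 500.07 on every array. No microarray scanner file or probe sequence was used here.

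Signals were log2 transformed, duplicate arrays were averaged in R 4.3.3, and the 62 control probe sets were removed. Of 54675 probe sets, 16517 reached 500 on 1 array or more and were kept, 59 of them for the members. A model with siRNA and cell line was fitted in limma 3.58.1 with a variance trend (1 residual and 4.82 prior degrees of freedom), and two-sided Benjamini-Hochberg adjusted p values under 0.05 over all probe sets kept were called. The small number of arrays and RNA samples limits the precision. The script was tested on simulated data.

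The members and lists were chosen with earlier results of these data known. All members are named, with every array for those called, changed 2-fold in both lines, or apart in opposite directions by at least 1.5-fold. Of the partner lists, called genes are named. Other values were added after they had been seen. Promoters came from a RefSeq table of GRCh38.p14, in which SEC24D, ARF4, ARFGAP1, ARFGEF1 and CNIH1 had no entry. Alternatives covered the filter, normalization, low signals, the variance model, the block, the unit of replication, the probe set and each array left out. Array numbers were not used to pair the samples in the reported fit. Over all probe sets kept, the differences of array 1 and array 2 correlated at −0.00608 to 0.126 between RNA samples. That does not exclude an effect of array number on single genes. ARF5 and COPE, for example, read higher on array 2 in every RNA sample.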

Additional observations from a re-analysis of the deposited data

Results flagged for a closer look

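Each of 5 of the 33 members, beside 13.3% of all genes, had both siIGF2R arrays outside both siCtrl arrays in opposite directions in BOKU and SKG-I. The log2 difference in BOKU minus that in SKG-I was 0.22 for COPB1, 0.65 for COPG1, 1.78 for COPG2, 0.49 for SEC13 and −0.24 for ARFGEF1. The difference between the lines was not tested, since each line has 1 RNA sample per siRNA. The second probe set of COPB1 gave 0.17 in BOKU and −0.09 in SKG-I, the same pattern as the first, while the other 2 kept probe sets of ARFGEF1 were above 0 in both lines.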

How the results depend on the processing

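Of the members' log2 differences recomputed under the alternatives, 699 kept their direction and side of the threshold, 34 passed it newly and 12 no longer passed it. The other 3, of members not called, changed sign: COPA (−0.16) was 0.0666 with its probe sets averaged, and SEC23B (−0.07) ranged from −0.213 to 0.0702 as single arrays were left out, above 0 without BOKU siCtrl array 1 or BOKU siIGF2R array 2. All 12 that no longer passed were of the called members. ARCN1 lost its call in 2 of 22 alternatives, ARF3 in 3 of 22, CNIH4 in 3 of 23 and SAR1B in 4 of 23. Members called higher (2 as reported) numbered 4 with a filter of 500 on all arrays, 4 with 64 added, 0 without the variance trend, 0 without the line block, 0 with a gene's probe sets averaged and 1 with single-transcript probe sets. Members called lower (2) numbered 0 without the trend, 0 without the block, 1 with the mean of probe sets and 0 with single-transcript probe sets, where 25 members were measured and ARCN1 and ARF3 were not among them. The calls over all genes, 236 higher and 212 lower as reported, were 0 without the trend or without the block, 216 and 259 of 5632 genes with the filter of 500 on all arrays, 404 and 347 with 64 added, and 108 and 103 with probe sets averaged. They were 174 and 138 of 6280 genes with single-transcript probe sets and 153 and 154 with quantile normalization. With a filter at 250 they were 152 and 143 of 10602 genes, and with no filter 304 and 232 of 19775. At an unadjusted p under 0.05, limma without the trend or without the block gave 6 members. The 2-fold counts of 2 higher and 2 lower became 1 and 1 with the mean of probe sets, 1 and 0 with single-transcript probe sets, and 4 and 2 at 1.5-fold. They stayed at 2 and 2 with the methods' t-test on duplicate arrays, and became 1 (SAR1B) and 1 (ARF3) after Benjamini-Hochberg adjustment, an alternative chosen after seeing the data. Partners called (2) numbered 1 with a filter at 250, 1 with quantile normalization, 4 with 64 added, 0 without the trend or the block, and 1 with the mean of probe sets or single-transcript probe sets. The 1 partner was RAB1B in each case except with single-transcript probe sets, where it was TMED10. Other ARF regulators called (0) numbered 1 with no filter. Members higher in SKG-I (5) numbered 3 without the trend. Line calls and unadjusted counts over all genes were computed only for the reported fit. No share over all genes therefore stands beside those counts of members under the alternatives. The median in BOKU (0.1133) was 0.07181 with median scaling, 0.06699 with the mean of probe sets and 0.1807 with single-transcript probe sets, and that in SKG-I (−0.1494) was −0.08464 with the last. The cause of these shifts was not tested.

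Leaving out 1 array at a time gave 2 to 4 members higher, 2 lower, 2 to 5 partners and 0 to 2 other ARF regulators called, 4 to 5 members higher in SKG-I, and medians of −0.01016 to 0.1133 in BOKU, reversed without BOKU siIGF2R array 1, and of −0.2123 to −0.1061 in SKG-I. The counts rose without BOKU siCtrl array 1 or BOKU siIGF2R array 2, with 4 members higher (SEC24A and SEC24B joined) and 5 or 4 partners, where 499 and 469 of all genes were higher and 456 and 398 lower.

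Taking the 8 arrays as separate samples counts duplicates of 1 RNA as replicates. It called 7 members higher and 10 lower, 17 partners and 8 other ARF regulators with no replicate block, and 7, 10, 17 and 7 with the array number as a replicate block, and it put 12 members lower in SKG-I (6 as reported) in both. Of all 8961 genes it called 2314 higher and 2220 lower with no replicate block and 2168 and 2092 with it. The line calls over all genes were not computed in these settings.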
